A study of Mus musculus with 14 samples.

Results

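Genes of white and brown fat, 9 in all, were followed in mouse lung: Adipoq, Lep, Retn and Cfd, which encode proteins that fat cells secrete, Plin1, Cidec and Cidea, which encode proteins of the lipid droplet, Thrsp, a gene of fat synthesis, and Ucp1, the gene of heat production in brown fat. They were chosen by name from the probes of the array, and they are 9 of the 17174 genes that the array's probes name, read by 10 of 41174 probes. The lungs came from C57BL/6N male mice, 6 months after a single instillation of 200 µg per mouse into the trachea. The VCF mice (n = 4) received carbon fibre before recycling, the CCF mice (n = 3) the fibre after carbonization, the RCF mice (n = 4) the fibre after firing, and the Ctrl mice (n = 3) the vehicle, PBS. Each of the 14 arrays carried Cy3-labelled RNA of 1 lung. The labels give no age, and nothing in them says how much tissue around the lung was removed at dissection.

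White fat cells store triglyceride in 1 large droplet coated by perilipin, and they secrete adipokines such as adiponectin and leptin. Brown fat cells hold many small droplets and burn fuel for heat through the uncoupling protein UCP1 in their mitochondria. The nuclear receptor PPARγ and the C/EBP factors switch on many genes of the fat cell. In the thorax, fat lies around the heart, the mediastinum and the large vessels, next to the lung. In whole-lung RNA, fewer cells of a type and less RNA per cell cannot be told apart.

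Promoter sequences of the genes whose levels moved most closely together over the lungs, Adipoq, Plin1 and Cfd, are shown with that of Cidec, which followed them least, a choice made after their values were seen. Each is the stretch from 250 bases before to 50 bases after an annotated start in RefSeq, build GRCm38.p6, written 5′ to 3′ along the gene. Capitals mark matches, on either strand, to the C/EBP motif TTNNGNAA. The positions are chr16:23146286-23146585, plus strand for Adipoq, chr7:79732727-79733026, minus strand for Plin1, chr10:79890603-79890902, plus strand for Cfd and chr6:113435711-113436010, minus strand for Cidec, the more upstream of the 2 starts listed for that gene.
Adipoq: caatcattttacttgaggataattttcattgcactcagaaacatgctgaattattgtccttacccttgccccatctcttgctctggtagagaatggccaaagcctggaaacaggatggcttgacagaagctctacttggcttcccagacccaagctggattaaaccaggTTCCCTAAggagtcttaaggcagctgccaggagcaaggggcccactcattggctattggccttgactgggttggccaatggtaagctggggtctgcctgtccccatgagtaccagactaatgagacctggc
Plin1: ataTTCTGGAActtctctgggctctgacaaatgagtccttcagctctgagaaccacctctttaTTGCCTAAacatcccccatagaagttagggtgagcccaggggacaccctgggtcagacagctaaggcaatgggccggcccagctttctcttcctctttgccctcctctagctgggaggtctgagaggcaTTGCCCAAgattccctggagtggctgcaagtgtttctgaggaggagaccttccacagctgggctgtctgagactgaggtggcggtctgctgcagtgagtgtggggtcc
Cfd: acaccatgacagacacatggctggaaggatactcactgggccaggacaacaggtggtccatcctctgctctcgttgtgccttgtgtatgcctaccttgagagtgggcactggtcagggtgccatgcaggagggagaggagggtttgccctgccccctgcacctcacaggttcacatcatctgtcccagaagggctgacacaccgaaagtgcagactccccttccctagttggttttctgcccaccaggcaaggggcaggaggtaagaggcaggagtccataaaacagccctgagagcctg
Cidec: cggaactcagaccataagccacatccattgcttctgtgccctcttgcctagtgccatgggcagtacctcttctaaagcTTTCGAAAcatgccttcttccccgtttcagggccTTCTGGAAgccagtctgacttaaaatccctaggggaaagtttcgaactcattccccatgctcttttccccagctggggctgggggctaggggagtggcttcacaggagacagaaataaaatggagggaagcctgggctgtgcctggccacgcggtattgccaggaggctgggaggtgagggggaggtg
Promoters were matched for 8 of the 9 genes, 9 promoters in all. The C/EBP motif was found in 5 of the 9, against 40.7% of 32851 mouse promoters of this length. It was matched at 3 places in Plin1, 2 in this promoter of Cidec, 1 in Adipoq and 0 in Cfd. AGGTCA, the half-site of nuclear receptors, was found in 1 of the 9, that of Ucp1, against 16.3% of all promoters, and TATAAA in 0 of the 9, against 13.6%.  The 3 promoters of the genes that moved together thus shared no match to these letters within this window.

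Levels are log2 of the background-subtracted intensity, with the 75th percentile of each array set to 0, so that 1 unit is a 2-fold step within 1 gene. That percentile was 724.7 to 1346 intensity units, and 63.1% to 70.6% of probes stood well above background on each array. The tissue matched its label: the lung genes Ager and Sftpb stood well above background on all 14 arrays, with levels of 4.78 to 5.81 and of 2.06 to 3.22. The arrays lay on 4 slides, of which the fourth carried VCF, CCF and RCF lungs and no Ctrl lung. VCF replicate 1 stood apart in the fat genes: it had the highest level of the 14 lungs in 9 of the 9 genes, and values are therefore also given without it. Well above background on all 14 arrays were 7 of the 9 genes. The exceptions, Lep and Ucp1, stood well above background on 3 arrays each, of which VCF replicate 1 was 1 in both cases.

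No fat gene passed the test in any fibre group. In VCF against Ctrl, 0 of the 9 genes passed limma's test at an adjusted p under 0.05, where 0.0102% of all 29269 tested probes passed. In CCF against Ctrl and in RCF against Ctrl, 0 of the 9 passed, and so did 0% of all probes. At an unadjusted p under 0.05, 0 of the 9 passed in each of these 3 comparisons, against 8.26% of all probes in VCF, 6.59% in CCF and 5.34% in RCF. The lungs of a fibre group and the Ctrl lungs overlapped for 9 of the 9 genes in each comparison. Groups that did not overlap were found for 8.71% of all probes in VCF, 9.77% in CCF and 8.09% in RCF, each against Ctrl.

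**Figure D1:**
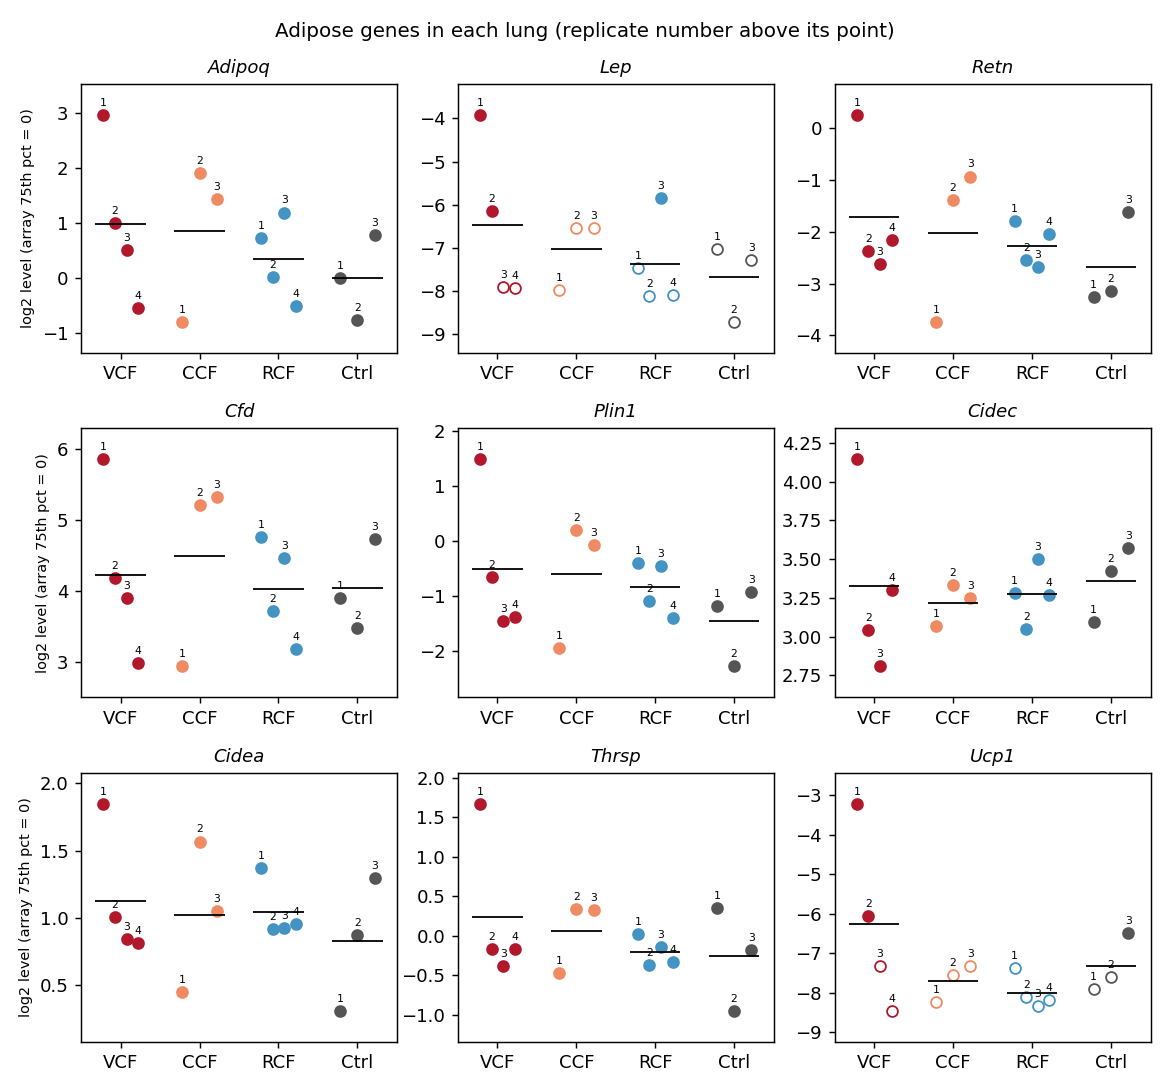
Log2 level of each of the 9 genes (vertical axis, the array's 75th percentile set to 0, a separate scale for each gene) in every VCF, CCF, RCF and Ctrl lung, with the replicate number above each point and the group mean as a line. Open points were not well above background on that array. VCF replicate 1 is the highest point in all 9 panels, and the groups overlap in each.

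The first role group is the secreted proteins. Adipoq encodes adiponectin, a hormone of fat cells that acts on liver and muscle. Its level was 2.96, 1.00, 0.51 and -0.55 in the VCF lungs, -0.79, 1.90 and 1.44 in the CCF lungs, 0.73, 0.01, 1.19 and -0.52 in the RCF lungs, and 0.00, -0.76 and 0.77 in the Ctrl lungs. VCF replicate 1 and CCF replicates 2 and 3 were the highest lungs, each group also held 1 lung below 0, and the groups overlapped. The means were 0.98 ± 1.47 in VCF (SD, n = 4), 0.85 ± 1.44 in CCF (SD, n = 3), 0.35 ± 0.76 in RCF (SD, n = 4) and 0.00 ± 0.77 in Ctrl (SD, n = 3). VCF exceeded Ctrl by 0.98 (95% interval -0.77 to 2.72, limma adjusted p = 0.86), and by 0.32 without VCF replicate 1. CCF exceeded Ctrl by 0.84 (-1.02 to 2.71, limma adjusted p = 0.899) and RCF by 0.35 (-1.39 to 2.09, limma adjusted p = 0.997).

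Cfd encodes adipsin, complement factor D, a serine protease of the alternative complement pathway that fat cells release in large amounts. Its level was 5.86, 4.19, 3.90 and 2.98 in the VCF lungs, 2.94, 5.22 and 5.32 in the CCF lungs, 4.76, 3.71, 4.46 and 3.19 in the RCF lungs, and 3.90, 3.48 and 4.74 in the Ctrl lungs. The lowest lung of the series was a CCF lung and the lowest VCF lung lay beside it, so both groups spanned the Ctrl range on either side. VCF differed from Ctrl by 0.19 (-1.33 to 1.72, limma adjusted p = 0.981), CCF by 0.46 (-1.17 to 2.08, limma adjusted p = 0.952) and RCF by -0.01 (-1.53 to 1.51, limma adjusted p = 1). The VCF difference from Ctrl was -0.35 without VCF replicate 1.

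Retn encodes resistin, a cysteine-rich hormone that mouse fat cells secrete and that opposes the action of insulin in mice. Its level was 0.26, -2.38, -2.62 and -2.16 in the VCF lungs, -3.74, -1.38 and -0.93 in the CCF lungs, -1.79, -2.56, -2.69 and -2.05 in the RCF lungs, and -3.26, -3.14 and -1.62 in the Ctrl lungs. One VCF lung stood apart from the other 3, which lay within the Ctrl range. The 4 RCF lungs also lay within the Ctrl range. VCF exceeded Ctrl by 0.95 (-0.70 to 2.60, limma adjusted p = 0.853), and by 0.29 without VCF replicate 1. CCF exceeded Ctrl by 0.66 (-1.11 to 2.42, limma adjusted p = 0.926) and RCF by 0.40 (-1.25 to 2.05, limma adjusted p = 0.997). A second probe for Retn tracked the first, with r = 0.98 over the 14 arrays.

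Lep encodes leptin, the hormone through which fat stores signal to the hypothalamus. It stood well above background in VCF replicates 1 and 2, at -3.91 and -6.15, and in RCF replicate 3, at -5.84. In the other 11 lungs it was not well above background, with values of -7.91 and -7.94 in VCF, -7.98, -6.55 and -6.54 in CCF, -7.47, -8.11 and -8.09 in RCF, and -7.02, -8.71 and -7.28 in Ctrl. Detection was thus in 2 of 4 VCF lungs, 0 of 3 CCF lungs, 1 of 4 RCF lungs and 0 of 3 Ctrl lungs. The VCF mean was at least 1.31-fold higher than the Ctrl mean with Ctrl arrays set no lower than their faintest probe well above background (limma adjusted p = 0.839). The measured means were -6.48 in VCF and -7.67 in Ctrl. Without VCF replicate 1 the VCF mean was -7.33, under the Ctrl mean set in this way (-6.86), so that bound rests on 1 lung, and the measured difference was 0.34. No fold is given for CCF or RCF against Ctrl.

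The next role group is the lipid droplet proteins. Plin1 encodes perilipin 1, which coats the droplet of the fat cell and controls the access of lipases to it. Its level was 1.49, -0.65, -1.45 and -1.39 in the VCF lungs, -1.94, 0.20 and -0.07 in the CCF lungs, -0.40, -1.10, -0.46 and -1.40 in the RCF lungs, and -1.19, -2.28 and -0.92 in the Ctrl lungs. It was low in Ctrl replicate 2 and CCF replicate 1 and high in VCF replicate 1 and CCF replicates 2 and 3. Of the differences from Ctrl among the 9 genes, that of Plin1 in VCF had the smallest p-value, with a difference of 0.96 (-0.55 to 2.47, unadjusted p = 0.192, limma adjusted p = 0.828). That difference was 0.30 without VCF replicate 1. CCF exceeded Ctrl by 0.86 (-0.75 to 2.48, limma adjusted p = 0.874) and RCF by 0.63 (-0.88 to 2.14, limma adjusted p = 0.997).

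Cidec encodes a droplet protein, known in mice as FSP27, that joins droplets into larger ones in white fat. Its level was 4.15, 3.04, 2.81 and 3.30 in the VCF lungs, 3.07, 3.33 and 3.25 in the CCF lungs, 3.28, 3.05, 3.50 and 3.27 in the RCF lungs, and 3.09, 3.42 and 3.57 in the Ctrl lungs. VCF replicate 1 was high, and the other 13 lungs lay within 0.76 of each other. The differences from Ctrl were -0.04 in VCF (-0.60 to 0.52, limma adjusted p = 0.991), -0.14 in CCF (-0.74 to 0.45, limma adjusted p = 0.959) and -0.09 in RCF (-0.65 to 0.47, limma adjusted p = 0.997). The VCF difference was -0.31 without VCF replicate 1 (limma adjusted p = 0.78).

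Cidea encodes the related droplet protein that is abundant in brown fat. Its level was 1.85, 1.00, 0.84 and 0.81 in the VCF lungs, 0.44, 1.57 and 1.05 in the CCF lungs, 1.37, 0.92, 0.92 and 0.95 in the RCF lungs, and 0.31, 0.87 and 1.30 in the Ctrl lungs. In VCF and in RCF, replicate 1 stood above 3 lungs that lay close together. VCF exceeded Ctrl by 0.30 (-0.38 to 0.99, limma adjusted p = 0.906), CCF by 0.19 (-0.54 to 0.93, limma adjusted p = 0.955) and RCF by 0.22 (-0.47 to 0.90, limma adjusted p = 0.997). VCF exceeded Ctrl by 0.06 without VCF replicate 1.

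Thrsp encodes Spot 14, a nuclear protein that responds to thyroid hormone and promotes fatty acid synthesis. Its level was 1.67, -0.16, -0.39 and -0.17 in the VCF lungs, -0.47, 0.34 and 0.33 in the CCF lungs, 0.03, -0.37, -0.14 and -0.33 in the RCF lungs, and 0.35, -0.95 and -0.17 in the Ctrl lungs. Apart from VCF replicate 1, every fibre-exposed lung lay within the Ctrl range. VCF exceeded Ctrl by 0.49 (-0.48 to 1.47, limma adjusted p = 0.882), and by 0.02 without VCF replicate 1. CCF exceeded Ctrl by 0.32 (-0.72 to 1.37, limma adjusted p = 0.947) and RCF by 0.05 (-0.92 to 1.03, limma adjusted p = 1).

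Ucp1 encodes the uncoupling protein that lets brown fat mitochondria release energy as heat. It stood well above background in VCF replicates 1 and 2, at -3.21 and -6.07, and in Ctrl replicate 3, at -6.48. In the other lungs it was not well above background, with values of -7.33 and -8.45 in VCF, -8.23, -7.55 and -7.32 in CCF, -7.37, -8.10, -8.34 and -8.19 in RCF, and -7.91 and -7.60 in Ctrl. In VCF replicate 1 it was 7.26-fold above VCF replicate 2, the next lung, the widest such gap among the 9 genes. With 2 of 4 VCF lungs and 1 of 3 Ctrl lungs well above background, and the other values included as measured, the VCF mean exceeded the Ctrl mean by 1.06 (-0.91 to 3.04, limma adjusted p = 0.867), and by 0.04 without VCF replicate 1. No fold is given for CCF or RCF against Ctrl.

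**Figure D2:**
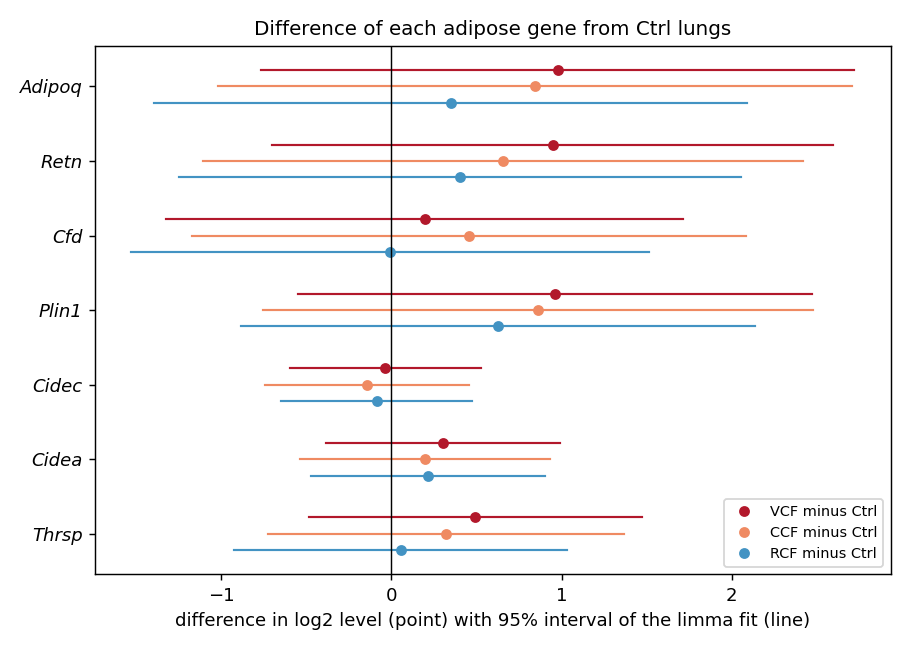
Difference in log2 level from Ctrl (horizontal axis) for the 7 genes well above background in every lung, with the limma estimate as a point and its 95% interval as a line, for VCF, CCF and RCF. All 21 intervals include 0, and those of Cidec are the narrowest.

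Among the 7 genes measured in every lung, the mean was above Ctrl for 6 in VCF, 6 in CCF and 5 in RCF, with median differences of 0.49, 0.46 and 0.22. The medians over all tested probes were 0.01, -0.01 and 0.01, with 52.3%, 47.5% and 52.3% of probes above 0. Without VCF replicate 1, the VCF mean was above Ctrl for 5 of the 7, with a median of 0.06. On slide 1 the VCF lung was below the Ctrl lung in 7 of 7 genes (median difference -0.53), and on slides 2 and 3 it was above in 4 and 5 of the 7 (medians 0.22 and 0.54). The CCF lung was above the Ctrl lung in 5 of 7 genes on slide 1 and in 1 of 7 on slide 3 (medians 0.59 and -0.75). The RCF lung was above it in 4, 5 and 6 of 7 on slides 1, 2 and 3 (medians 0.02, 0.25 and 0.57). Leaving out 1 lung moved the CCF difference from Ctrl from 0.32 (without CCF replicate 2) to 1.66 (without CCF replicate 1) for Adipoq. For Retn and Cfd it ran from 0.11 and 0.04 without CCF replicate 3 to 1.52 and 1.23 without CCF replicate 1. For Plin1 it ran from 0.45 without Ctrl replicate 2 to 1.53 without CCF replicate 1. In RCF it ran from 0.11 to 0.93 for Retn and from 0.22 to 0.90 for Plin1. With the slide as a block, the CCF difference was 0.11 for Adipoq, 0.28 for Retn and 0.26 for Plin1. In that fit the median differences over the 7 genes were 0.30 in VCF, 0.01 in CCF and 0.01 in RCF.

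No fat gene passed the test between the fibres either. In CCF against VCF, RCF against VCF and RCF against CCF, 0 of the 9 genes passed limma's test, and so did 0% of all probes. At an unadjusted p under 0.05, 0 of the 9 passed in each, against 5.8%, 5.29% and 7.9% of all probes. The groups overlapped for 9 of the 9 genes, while 5.29%, 3.92% and 8.7% of all probes did not overlap. RCF was below VCF in 7 of the 7 genes measured in every lung, with a median difference of -0.33 (46.8% of all probes were above 0), but without VCF replicate 1 it was above VCF in 7 of the 7, with a median of 0.15. CCF was likewise above VCF in 1 of the 7 (against 46.4% of all probes), and without VCF replicate 1 in 7 of the 7, with medians of -0.11 and 0.37. RCF was above CCF in 2 of the 7 (against 51.2% of all probes), with a median of -0.25. Within slides the direction turned: the RCF lung was above the CCF lung in 2, 7 and 0 of the 7 genes on slides 1, 3 and 4 (medians -0.33, 1.05 and -1.18). The CCF lung was above the VCF lung in 7, 1 and 0 of the 7 on the same slides (medians 0.92, -1.25 and -1.06). The RCF lung was above the VCF lung in 7, 4, 5 and 0 of the 7 on slides 1, 2, 3 and 4 (medians 0.53, 0.03, 0.19 and -2.15). The smallest p-value among the fibre pairs was that of Ucp1 in RCF against VCF, where 0 of 4 RCF lungs and 2 of 4 VCF lungs stood well above background. The measured means were -8.00 in RCF and -6.27 in VCF, and RCF was at least 1.41-fold lower (limma difference -1.74, 95% interval -3.57 to 0.09, unadjusted p = 0.0608, adjusted p = 0.962). Without VCF replicate 1 the difference was -0.72, and the VCF mean of -7.28 lay under the faintest RCF level that counts as above background (mean -6.76), so that bound too rests on 1 lung.

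Most of these genes varied widely between lungs of the same group. The within-group SD, pooled over the 4 groups, was 1.16 for Adipoq, 1.10 for Retn, 1.01 for Cfd and 1.01 for Plin1, against a median of 0.24 over the 24252 probes well above background on every array. Among those probes, 99.16% had a smaller SD than Adipoq, 99.02% than Retn, 98.73% than Cfd and 98.69% than Plin1. Thrsp (SD 0.65) exceeded 95.72% and Cidea (SD 0.45) exceeded 87%. Cidec (SD 0.36) exceeded 76.73%. Without VCF replicate 1 the shares were 98.54% for Adipoq, 98.13% for Retn, 98.07% for Cfd and 97.01% for Plin1, but 81.98% for Thrsp, 79.69% for Cidea and 38.62% for Cidec. The wide spread of the first 4 genes was thus present in the other 13 lungs too, and that of Cidec was not.

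**Figure D3:**
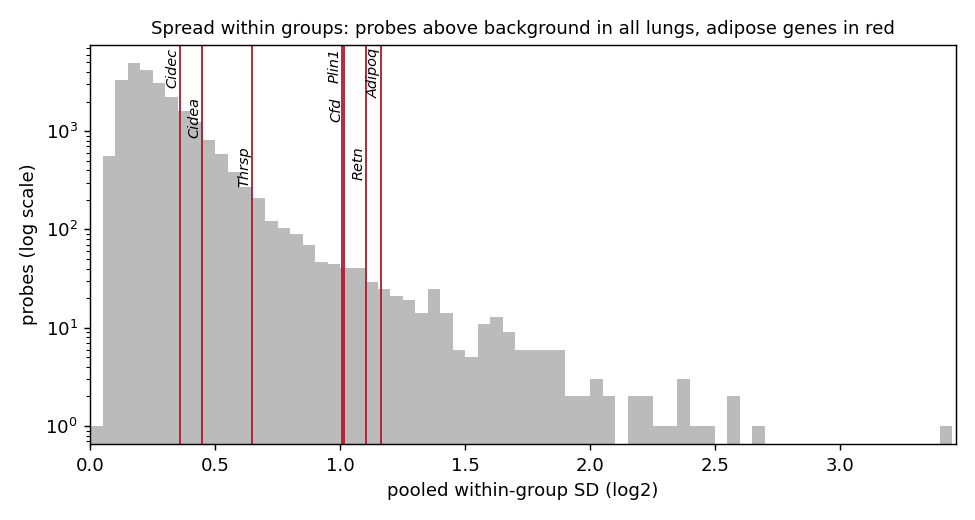
Histogram of the pooled within-group SD (horizontal axis, log2 units) of 24252 probes well above background in every lung, with the number of probes on a log axis and the 7 fat genes measured in every lung as vertical lines. Adipoq, Retn, Cfd and Plin1 lie in the right tail, at 1.01 to 1.16, while Cidec, at 0.36, lies nearer the bulk.

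The genes varied together. Pearson's r between pairs of the 9 genes over the 14 lungs had a median of 0.75 over 36 pairs, from 0.56 to 0.95, and without VCF replicate 1 a median of 0.53, from -0.03 to 0.93. Adipoq, Plin1 and Cfd, whose promoters are shown above, were the closest set, with r of 0.90 to 0.95 between them and of 0.87 to 0.93 without VCF replicate 1. With the mean of the other 8 genes, and without that lung, r was 0.94 for Adipoq, 0.92 for Plin1 and 0.92 for Cfd. It was 0.71 for Retn, 0.70 for Lep, 0.68 for Cidea and 0.67 for Thrsp, and lower for Ucp1 (0.43) and Cidec (0.24). Values of Lep and Ucp1 below background enter these figures. All pairs share the same 14 arrays and their scaling.

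**Figure D4:**
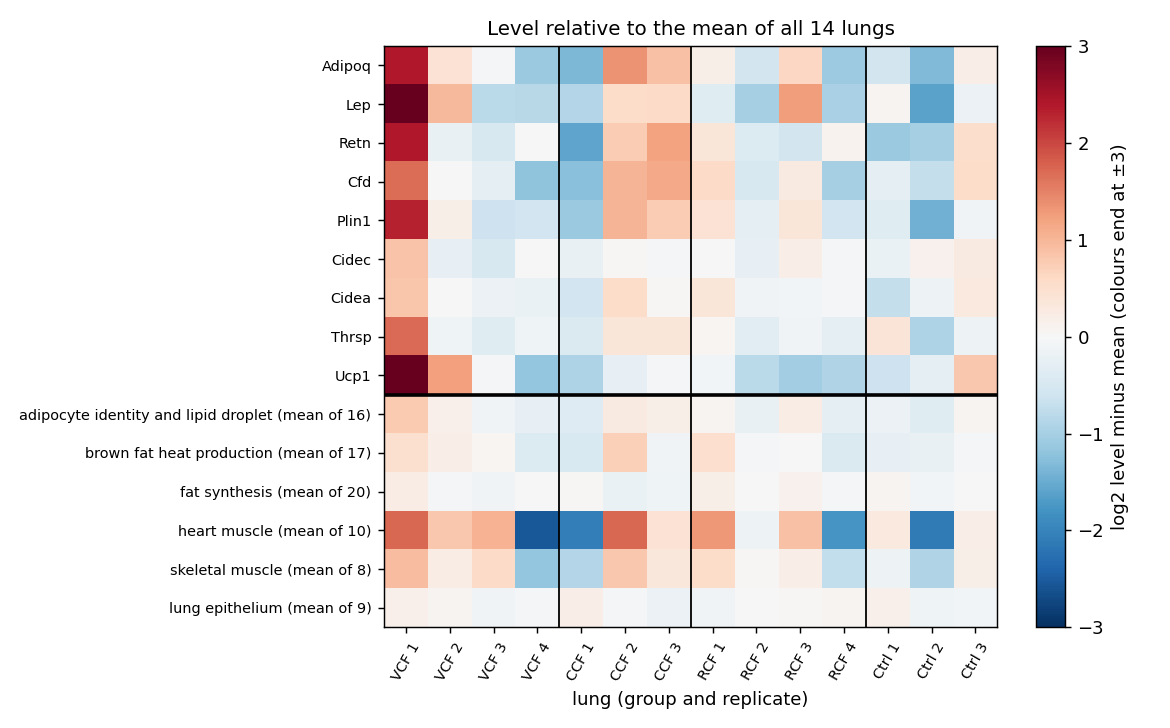
Log2 level relative to the mean of all 14 lungs (colour, red above and blue below, ending at 3 units either way) of the 9 fat genes and, under the line, the mean of 6 further gene lists, in VCF, CCF, RCF and Ctrl lungs from left to right. VCF replicate 1 is high throughout the fat genes, and the heart muscle list is lowest in VCF replicate 4, Ctrl replicate 2, CCF replicate 1 and RCF replicate 4.

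The mean of the 9 genes, each taken relative to its mean over all lungs, gives each lung 1 fat-gene level. It was 2.16, 0.24, -0.37 and -0.58 in the VCF lungs, -0.93, 0.60 and 0.54 in the CCF lungs, 0.16, -0.47, 0.10 and -0.54 in the RCF lungs, and -0.38, -0.81 and 0.25 in the Ctrl lungs. The 3 highest lungs were VCF replicate 1, CCF replicate 2 and CCF replicate 3, and the lowest was CCF replicate 1. By slide, the 3 lungs of slide 2 lay between -0.81 and -0.54, and those of slide 4 between -0.47 and 2.16, against -0.37 to 0.54 on slide 1 and -0.93 to 0.24 on slide 3. The mean over the 7 genes measured in every lung had r = 0.99 with it over the 14 lungs. Those 7 are part of the 9, so a high r was given in advance.

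Among 14455 other genes, the 12 whose level followed this mean most closely over the 14 lungs were Mrap, Car3, Orm1, Fabp4, Vat1l, A530016L24Rik, Plin4, Tmem45b, Ak1, B3galt2, Orm2 and Sncg, with Pearson's r from 0.94 to 0.89. Fabp4 encodes the fatty acid carrier of fat cells, Plin4 another droplet coat protein, and Mrap an accessory protein of melanocortin receptors. Car3 encodes a carbonic anhydrase abundant in fat and muscle, and Orm1 and Orm2 encode acute-phase glycoproteins. Car3 kept r = 0.97 without VCF replicate 1, the highest of all genes ranked, and A530016L24Rik 0.95. Values below background enter for A530016L24Rik, well above it on 8 of the 14 arrays, and for B3galt2, on 12. Sncg had r = 0.89 with that lung and 0.71 without it. Without the 2 lungs farthest from the median, r was 0.97 for Car3, 0.89 for Fabp4 and 0.81 for Mrap. Of the 12, Fabp4, Plin4, Car3, Mrap and Sncg stand on the list of fat cell genes described next.

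Car3 had levels of 3.56, 1.81, 1.40 and 0.50 in the VCF lungs, 0.20, 2.93 and 2.65 in the CCF lungs, 1.61, 0.72, 1.59 and 0.34 in the RCF lungs, and 1.02, 0.08 and 2.14 in the Ctrl lungs. Fabp4 had levels of 5.39, 3.64, 3.86 and 2.66 in the VCF lungs, 1.90, 4.60 and 4.14 in the CCF lungs, 3.58, 2.94, 3.80 and 3.01 in the RCF lungs, and 3.38, 2.82 and 3.84 in the Ctrl lungs. Both were high in the same 3 lungs as the fat-gene mean and overlapped between all groups. Their differences from Ctrl were 0.74 and 0.54 in VCF, 0.85 and 0.20 in CCF, and -0.01 and -0.01 in RCF (limma adjusted p from 0.896 to 1).

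Of 20 further genes of fat cell identity and the lipid droplet, 16 were tested. In each of the 3 comparisons with Ctrl, 0 of the 16 passed in either direction at the adjusted threshold, and 2, 0 and 0 passed, all of them higher, at an unadjusted p under 0.05 in VCF, CCF and RCF, against 8.26%, 6.59% and 5.34% of all probes in either direction. The means were higher than Ctrl for 11, 11 and 6 of the 16, with median differences of 0.22, 0.11 and -0.01. The widest ranges over the lungs were those of Acvr1c (3.60), a receptor of the activin family in fat cells, Fabp4 (3.49) and Car3 (3.48). The mean of the 16 followed the fat-gene mean with r = 0.98, and with r = 0.97 without VCF replicate 1. The median r of its single genes was 0.57, against -0.03 over all genes ranked, and 9 of 16 had r above 0.5, against 9.28% of all genes. Without VCF replicate 1 that median was 0.34, against -0.07, and 7 of 16 had r above 0.5 (43.8%, against 6.71%).

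The next list holds genes of fat synthesis, which make fatty acids and triglyceride. Of 20 tested, 0 passed in each comparison with Ctrl, and the median differences were 0.04 in VCF, 0.00 in CCF and 0.06 in RCF. Singly, 5 of the 20 had r above 0.5 with the fat-gene mean (25%, against 9.28% of all genes), with a median r of 0.13. Without VCF replicate 1 these were 2 of 20 (10%, against 6.71%), with a median of -0.07. The widest ranges were those of Acacb (8.32), which encodes an acetyl-CoA carboxylase, the glucose transporter gene Slc2a4 (2.10) and Dgat2 (1.53), which encodes an enzyme of triglyceride synthesis. The range of Acacb came from CCF replicate 2, where it was not well above background, at -6.88, against -0.11 to 1.44 in the other lungs. That value decided the list's mean, whose r with the fat-gene mean was 0.33 with Acacb and 0.63 without it, and -0.16 and 0.33 when VCF replicate 1 was left out.

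Of 17 tested genes of heat production in brown fat, 0 passed in each comparison with Ctrl, with 12, 13 and 12 above Ctrl in VCF, CCF and RCF (medians 0.35, 0.24 and 0.21). Their mean had r = 0.72 with the fat-gene mean and 0.74 without VCF replicate 1. Singly, 8 of the 17 had r above 0.5 (47.1%, against 9.28% of all genes), with a median r of 0.36. Without VCF replicate 1 these were 9 of 17 (52.9%, against 6.71%), with a median of 0.525. The widest ranges were those of the kininogen gene Kng1 (5.93), Fabp3 (2.98) and Cpt1b (2.85), of which Fabp3 and Cpt1b are also genes of fatty acid use in heart and muscle. Kng1 stood well above background on 11 of the 14 arrays. Fabp3 and Cpt1b were among the 8, with r of 0.75 and 0.65. Kng1 (0.19), Dio2 (0.16) and Prdm16 (0.03) were not, so the list did not follow the fat-gene mean as a whole. 

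Of the 12 fat cell regulators, 0 passed in any comparison with Ctrl, and 2, 3 and 2 passed at an unadjusted p under 0.05 in VCF, CCF and RCF, against 8.26%, 6.59% and 5.34% of all probes. Pparg, the gene of PPARγ, was among them and is named here after its values were seen. Alveolar macrophages also depend on it. Its level was 1.44, 1.26, 1.47 and 1.50 in the VCF lungs, 1.27, 1.16 and 1.30 in the CCF lungs, 1.46, 1.46, 1.29 and 1.54 in the RCF lungs, and 1.69, 1.73 and 1.73 in the Ctrl lungs. All 11 fibre-exposed lungs lay below all 3 Ctrl lungs. In single comparisons with Ctrl, groups that did not overlap were found for 8.71% of all probes in VCF, 9.77% in CCF and 8.09% in RCF. The share of probes for which all 11 lungs lay apart from Ctrl was not computed. The differences from Ctrl were -0.30 in VCF (unadjusted p = 0.0109, limma adjusted p = 0.409), -0.47 in CCF (unadjusted p = 0.000826, limma adjusted p = 0.587) and -0.28 in RCF (unadjusted p = 0.0163, limma adjusted p = 0.834). Such a separation was not particular to Pparg. For Wnt2, on the fibroblast list below, all 11 fibre-exposed lungs (2.30 or more) lay above all 3 Ctrl lungs (2.21 or less). Of the 12 adipokine receptors and adaptors, 0 passed in any comparison with Ctrl, and 1, 0 and 2 passed at an unadjusted p under 0.05. The list mean of the regulators had r = 0.58 with the fat-gene mean and that of the receptors and adaptors r = -0.58, and 0.76 and -0.49 without VCF replicate 1. Singly, 1 of the 12 regulators had r above 0.5 (8.33%, against 9.28% of all genes), with a median r of 0.05. Without VCF replicate 1 these were 3 of 12 (25%, against 6.71%), with a median of 0.07. For the receptors and adaptors they were 0 of 12 with and without that lung, with medians of -0.28 and -0.26. The regulators with the widest ranges were Rxrg (2.35), Prrx1 (1.74) and Dlk1 (1.63), and the receptors and adaptors were Stat3 (1.88), C3ar1 (1.73) and Socs3 (1.48).

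Heart muscle genes, and some skeletal muscle genes, moved with the fat genes from lung to lung. All 10 of the heart muscle genes listed were tested. With the fat-gene mean, 10 of 10 had r above 0.5 (100%, against 9.28% of all genes), with a median of 0.70. Without VCF replicate 1 these were 10 of 10 (100%, against 6.71%), with a median of 0.77. The mean of the 10, relative to all lungs, was 1.73, 0.81, 1.05 and -2.54 in the VCF lungs, -2.07, 1.71 and 0.43 in the CCF lungs, 1.30, -0.14, 0.89 and -1.78 in the RCF lungs, and 0.30, -2.12 and 0.21 in the Ctrl lungs. Its r with the fat-gene mean was 0.73, and 0.80 without VCF replicate 1. The 4 lungs with the lowest heart mean were also the 4 with the lowest fat-gene mean, and 3 of them are the lungs of slide 2. Myh6 stood well above background on 13 arrays and had no value in Ctrl replicate 2, where the mean is over the others. The other heart genes stood well above background on all 14 arrays. Of these, Nppa, the atrial natriuretic peptide gene, ranged from -5.18 in CCF replicate 1 to 4.50 in CCF replicate 2, Sln, which encodes sarcolipin, over 5.56, and Tnni3, which encodes cardiac troponin I, over 5.07. For the 10 heart genes, 0 passed in each comparison with Ctrl. The part of heart and muscle tissue, or of the slide, in the spread of the fat genes was not tested.

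Of the 8 skeletal muscle genes, 8 were tested, and 0 passed in any comparison with Ctrl. Singly, 5 of the 8 had r above 0.5 with the fat-gene mean (62.5%, against 9.28% of all genes), with a median r of 0.64. Without VCF replicate 1 these were 4 of 8 (50%, against 6.71%), with a median of 0.56. The list mean had r = 0.77 with the fat-gene mean, and its 4 lowest lungs were the same 4. It ranged from -1.15 to 0.91 in VCF, from -0.88 to 0.80 in CCF, from -0.73 to 0.55 in RCF and from -0.91 to 0.18 in Ctrl. Myh4, Myl1 and Ckm, which encode muscle myosin chains and creatine kinase, had the widest ranges, of 4.99, 4.58 and 4.52. Mylpf, Tnni2 and Myh1 were not among the 5, with r of 0.27, 0.19 and 0.12 and ranges of 0.48, 0.82 and 1.14.

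**Figure D5:**
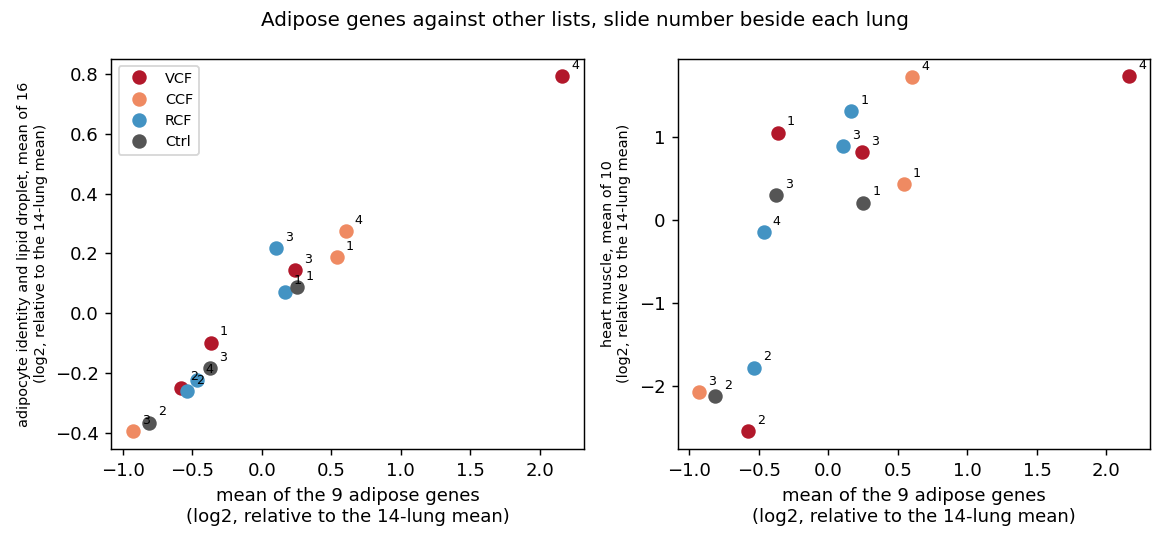
Mean of the 9 fat genes (horizontal axis) against the mean of 16 fat cell genes (left) and of 10 heart muscle genes (right), in log2 units relative to the mean of the 14 lungs, with VCF, CCF, RCF and Ctrl lungs in colour and the slide number beside each point. The left points lie along a line (r = 0.98), and on the right the 4 lungs at the bottom include the 3 of slide 2.

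Markers of the other cell types that a lung sample can hold were set against the fat genes in the same way. The r of the list mean with the fat-gene mean was 0.04 for 9 genes of lung epithelium, 0.04 for 7 genes of lipid-storing lung fibroblasts, -0.33 for 6 of mesothelium, 0.33 for 6 of liver, 0.30 for 6 of thymus and lymph node and -0.60 for 9 of alveolar macrophages. Without VCF replicate 1 these values were -0.41 for lung epithelium, 0.11 for the fibroblasts, -0.09 for mesothelium, 0.36 for liver, 0.60 for thymus and lymph node and -0.68 for alveolar macrophages. Without the 2 lungs farthest from the median, r was -0.81 for alveolar macrophages, 0.76 for heart muscle and 0.77 for skeletal muscle. In these lists, too, 0 genes passed in a comparison with Ctrl. Alveolar macrophage genes were below Ctrl in 9 of 9 in VCF, 9 of 9 in CCF and 8 of 9 in RCF, with median differences of -0.34, -0.58 and -0.25, while 52.3%, 47.5% and 52.3% of all probes were above Ctrl. At an unadjusted p under 0.05, 2, 5 and 2 of them passed, all lower, against 8.26%, 6.59% and 5.34% of all probes in either direction. The widest ranges were those of Siglecf (3.02), Marco (2.22) and Ear1 (1.41) in that list, of Sftpb, Ager and Foxj1 in the epithelium (0.81 to 1.16), and of Npnt, Limch1 and Wnt2 in the fibroblasts (0.93 to 3.06). In the mesothelium they were those of Upk3b, Msln and Bnc1 (1.18 to 1.35). Rag1, Glycam1 and Dntt in the thymus and lymph node (4.43 to 8.08) and Fgb, Apoh and Apoa2 in the liver list (5.18 to 6.86) had wide ranges too. Except for Dntt, these ranges include values below background. Rag1 stood well above background on 3 of the 14 arrays, Glycam1 on 6, Fgb on 9, Apoh on 12 and Apoa2 on 11.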

How the data were processed

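Background-subtracted intensity of each spot was read from the deposited scanner output, for which Agilent Feature Extraction 10.7.3.1 and a grid on mm9 are named per the file headers. It was not scaled between arrays by the authors. A table of log2 values deposited by the authors equals, for 100% of its 27496 probes, log2 of the same intensity minus 1 constant per array, within 0.01. That constant was nearly log2 of the 75th percentile used here, for instance 9.506 against 9.507 in Ctrl replicate 1 and 9.532 against 9.528 in CCF replicate 2. The table served as an alternative, but it repeats the main scaling almost exactly, so a like outcome was given in advance.

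Control spots (1639) and spots marked as outliers (61 to 254 per array) were left out, and spots of a probe were averaged. The number of arrays limits the precision, and no spot was saturated. Gene names came from RefSeq transcripts (GRCm38.p6): 24836 of 41174 probes had 1 name. Probes well above background on at least 3 of 14 arrays were tested (29269), with limma 3.58.1 in R 4.3.3, all 4 groups in 1 fit, two-sided, with Benjamini-Hochberg adjustment over all probes for each of 6 comparisons. Each gene was read at its brightest tested probe. Arrays of a group are separate lungs. Replicate numbers did not pair lungs: same-numbered lungs correlated from -0.37 to 0.35 after group means were removed. Lungs on the same slide correlated with a median of 0.12 (-0.02 to 0.43), against -0.08 for lungs on different slides, and the reported fit has no term for the slide. Python 3.11.15 with matplotlib 3.10.9 drew the figures.

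The genes and lists were chosen with earlier results of these data known. The 9 genes are all described. Of each other list, the text names every gene that passed in a comparison with Ctrl and the 3 with the widest range over the lungs. Pparg falls outside this rule and was added after its values were seen, as were Dio2, Prdm16, Mylpf, Tnni2, Myh1 and Myh6. As genes of like pattern it names the 12 with the highest correlation.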

Additional observations from a re-analysis of the deposited data

Results flagged for a closer look

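In groups of 4 lungs, a lung far from the other 3 was looked for in 18 combinations of gene and group, by the gap to the nearest lung divided by the group's range, against Dixon's 95% critical value. Independent combinations would give about 1 in 20 by chance, and 3 were found. The 18 share the same lungs and the genes varied together, so the 3 cannot be weighed against that rate. Thrsp in VCF had a gap of 0.8925 of the range, since VCF replicate 1 stood at 1.67 and the next lung at -0.16. Retn in VCF had a gap of 0.8388, with the same lung at 0.26 and the next at -2.16. Cidea in RCF had a gap of 0.9172, with RCF replicate 1 at 1.37 and the next lung at 0.95, but the whole range there was only 0.45. Groups of 3 lungs were not examined.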

How the results depend on the processing

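The count of fat genes passing the adjusted threshold was 0 in each of the 6 comparisons under each alternative run, namely normexp background correction, quantile scaling, the values of the authors' deposited table, a looser and a stricter cut on dim probes, a block for slide, position or replicate number, a fit of 2 groups, a trended prior, the mean over a gene's probes, unadjusted p, and each lung left out. Lep and Ucp1 have no value in the authors' table or among probes above background on all arrays, so there the count is over 7 genes. Over 617 recomputed differences the sign changed in 23, and all of those differences lay on the same side of the threshold as before. Many of the 617 could not change. A fit of 2 groups, a trended prior, unadjusted p, or leaving out a lung of neither group returns the same difference. The authors' table has almost the same scaling as the main setting. The share that kept its sign is therefore no measure of how stable the differences are.

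Cfd changed sign with the slide as a block in CCF (-0.13) and in VCF (-0.067) against Ctrl, and in RCF against Ctrl with normexp (0.019). With replicate number as a block, which the labels do not tie to a shared litter or day, Cfd in RCF against Ctrl was 0.34, and 0 genes passed in every comparison. Thrsp changed sign with the slide as a block in CCF (-0.025) and RCF (-0.14) against Ctrl, and with normexp in RCF (-0.043). The cause was not tested. With each lung left out, the difference from Ctrl ran from -0.036 to 0.73 for Adipoq in RCF, -0.29 to 0.34 for Cfd in RCF, -0.35 to 0.61 for Cfd in VCF, -0.079 to 0.48 for Cidea in CCF, -0.043 to 0.45 for Cidea in RCF, -0.22 to 0.018 for Cidec in RCF, -0.31 to 0.14 for Cidec in VCF, -0.023 to 0.63 for Thrsp in CCF and -0.29 to 0.36 for Thrsp in RCF. Normexp moved the median of all probes by -0.21 in CCF against Ctrl. With 3 or 4 lungs a group, the precision of each difference is that of its interval.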
